A study of Drosophila melanogaster with 24 samples.

Results

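Indirect flight muscle (IFM) of Drosophila melanogaster pupae that had fed on methylmercury as larvae was compared with IFM of control pupae, across all expressed genes. The comparison takes every library whose title gives the dose, this tissue and 30 h after puparium formation, which is 6 of the 24 libraries of the series, 3 with methylmercury (MeHg) and 3 controls. In the MeHg group, larvae were moved at the first instar to food with 5 µM methylmercury chloride. In the control group (0 µM), the food held the solvent alone, DMSO at 0.01%. Both groups were taken at 30 h after puparium formation, with the sexes mixed and with no strain or transgene named in the labels. Each replicate pooled the dorsal longitudinal and dorsoventral muscles of 50 animals, dissected after fixation in Methacarn, so a library averages over animals and over the 2 muscle sets. The other groups of the series, used here only to test where the pupal muscle differs, are IFM of 15-day-old adults that had fed on MeHg or control food as larvae and had then been kept without MeHg, and the ventral nerve cord (VNC) at the same stages.

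Flight muscles form in the early pupa. Adult myoblasts migrate to the thorax, stop dividing, and fuse with founder cells or with remodelled larval muscles. Fusion starts when immunoglobulin receptors of both partners bind, and an actin focus driven by Rac, WASp and Arp2/3 then opens the contact. Attachment to tendon cells, motor innervation, assembly of the sarcomere and the growth of mitochondria follow. Methylmercury binds thiols, so glutathione, its transferases, metallothioneins and antioxidant enzymes are the textbook response genes. The purpose named in the series title is the effect of MeHg on the development of this muscle and of the nerve cord.

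Library totals were 26.2, 19.7 and 24.4 in MeHg 1, 2 and 3, and 17.4, 17.1 and 29.4 in control 1, 2 and 3, in units of 1e6 counts. Ribosomal RNA genes took 1.44% to 1.67% of the MeHg libraries and 1.86% to 3.18% of the control libraries. Genes of the mitochondrial genome, ribosomal RNA genes among them, took 1.39% to 1.51% of the MeHg libraries and 1.8% to 2.93% of the control libraries. Leaving out both kinds of gene gave 346 called genes in place of 341. A tag in the titles is shared by replicate 1 of both groups and another by replicates 2 and 3, and what it stands for is not given. All 6 libraries had the expression of flight muscle. The flight muscle actin Act88F was at 10821 to 15094 CPM (counts per 1e6 counts of the library, scaled by TMM) with MeHg and 13518 to 16169 CPM in controls, and the myosin heavy chain Mhc at 13637 to 18370.3 CPM with MeHg and 15928 to 18842 CPM in controls. Nothing in the labels says that replicates came from separate cultures, so p-values measure the spread between pools. In the gene tests that spread was estimated over the 12 IFM libraries, adult ones among them.

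With MeHg, 6 of 28 genes of myoblast fusion rose, among them the receptors sns and rst, a larger set of genes that includes enzymes of detoxification and metabolism was lower, and 34 of 35 genes of the contractile apparatus did not pass the test. Of 11347 genes tested, 341 (3.01%) were called at an adjusted p under 0.05 by edgeR's quasi-likelihood test with Benjamini-Hochberg adjustment over all these genes, which is the adjusted p given throughout. With MeHg, 104 genes were higher (0.917%) and 237 lower (2.09%). A change of 2-fold or more was seen in 112 called genes (0.987%), 26 higher (0.229%) and 86 lower (0.758%). The ranges of the 2 groups did not overlap in any of the 341, a pattern shown by 28.7% of all genes tested. The count depended on single libraries: it was 181 without MeHg 1, 181 without MeHg 2, 101 without MeHg 3, 190 without control 1, 146 without control 2 and 271 without control 3. All 6 of these fits called 90 genes, 12 higher and 78 lower. With the title tag as a batch term, 154 genes were called, 31 higher and 123 lower. With the replicate number as a block, 0 genes were called, so every call rests on a fit without that block.

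Long genes had relatively more counts in the MeHg libraries. The Spearman correlation across 6966 genes between a library's deviation from the mean of the 6 libraries and exonic length was 0.421, 0.269 and 0.353 in MeHg 1, 2 and 3, and -0.426, -0.342 and -0.194 in control 1, 2 and 3. No MeHg library overlapped a control library in this value. The group means differed by 0.668, with a two-sided exact permutation p of 0.1, the smallest that 3 libraries against 3 allow. Across the genes, which are not independent replicates, the log2 fold change had a Spearman correlation of 0.474 with exonic length. Its median was -0.15 in the decile of genes of 992 to 1293 bases and 0.18 in the longest decile, of 5619 bases or more. Called rises lay mostly among long genes, with 35 in the longest decile and 3 in the shortest, and called falls among genes of middle and short length, with 48 in the decile of 992 to 1293 bases and 7 in the longest. After each library's own trend with length had been removed, 273 genes were called (2.41%), 88 higher (0.776%) and 185 lower (1.63%). Of the 341, 230 were called in both fits, 65 higher and 165 lower, and none turned its sign. The 111 that lost the call were 39 higher and 72 lower. Whether the trend comes from the tissue or from the libraries was not tested, and named genes below are given with the value after removal where that ends the call.

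**Figure D1:**
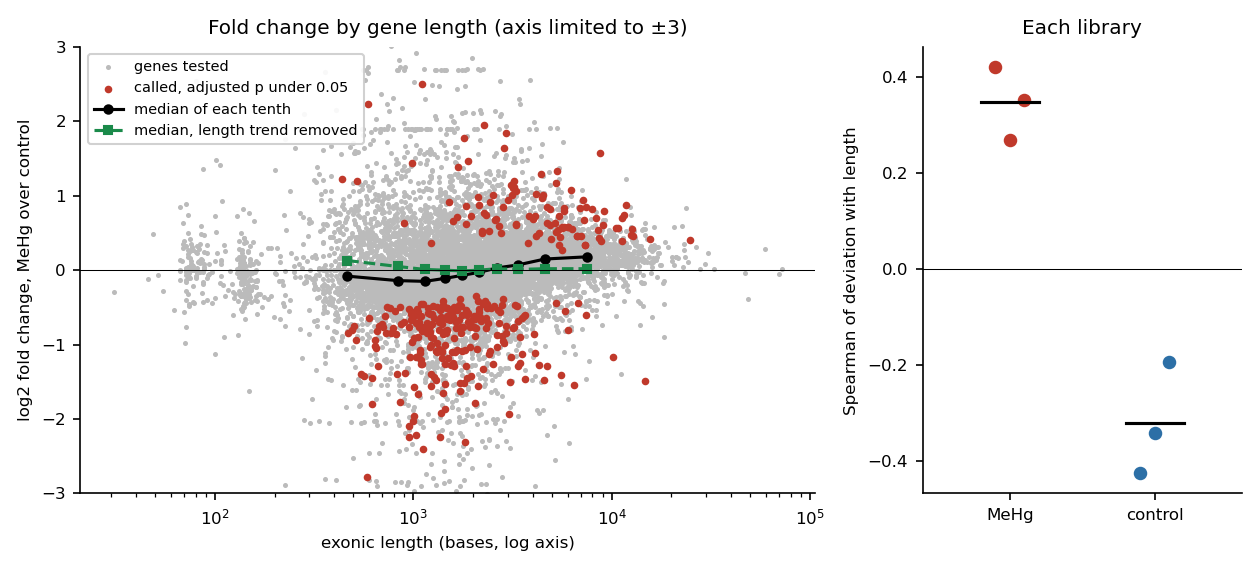
The left panel plots log2 fold change of MeHg over control against exonic length on a log axis, for genes tested (grey), called genes (red) and the median of each length decile before (black) and after (green) removal of the length trend, with values beyond 3 not drawn. The right panel plots each library's Spearman correlation of its deviation with exonic length, MeHg from 0.269 to 0.421 and controls from -0.426 to -0.194, with group means as bars.

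Myoblast fusion held the receptors sns and rst and 4 cytoplasmic genes among the rises, while most members did not pass. Of 28 genes of the fusion list, 6 rose (21.4%, against 0.917% of all genes) and none fell, and 23 had a log2 fold change above 0, with a list median of 0.16. This list and those below were chosen with earlier results of these data known, so such shares describe the lists and are not tests. Over all genes tested the median was 0.00, with 5625 above 0. With the length trend removed 7 members rose, Rac2 being the addition (adjusted p 0.0341), and the median was 0.20. The receptor sns (Dmel_CG33141, chromosome 2R, 8798489 to 8856091, release 6, a protein-coding gene on the plus strand), which marks fusion-competent myoblasts, was at 516, 409 and 656 CPM with MeHg and 202.5, 117 and 212 CPM in controls. The lowest MeHg library had a higher value than any control library. Its mean was 527 ± 124 CPM with MeHg and 177 ± 52.3 CPM in controls (SD, n = 3 each), a log2 fold change of 1.57 ± 0.23 (SE, adjusted p 0.00662). Its founder-cell partner rst had 253, 213 and 288 CPM with MeHg, against 124, 92.2 and 140 CPM in controls, and rose by 1.08 ± 0.16 on the log2 scale (adjusted p 0.00662). The paralog kirre, which acts with rst in founder cells, had 269, 205.5 and 219 CPM with MeHg and 154, 148 and 205.1 CPM in controls, so its ranges were barely apart, and it did not pass (log2 0.45 ± 0.16, adjusted p 0.152).

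Behind the receptors, Vrp1, the WASp-interacting partner at the actin focus, had 210, 189 and 258 CPM with MeHg and 110, 79.7 and 102 CPM in controls (log2 1.17 ± 0.15, adjusted p 0.00378). The Arf exchange factor siz had 49.5, 51.3 and 61.2 CPM with MeHg and 34.1, 27.0 and 29.5 CPM in controls (log2 0.84 ± 0.11, adjusted p 0.00349). Both kept the call with every single library left out, with the title tag as batch and with the length trend removed, as did sns and rst. The remaining called members of the list, mbc and blow, lie outside the rule for named genes and were picked to complete the count of 6. The Rac exchange factor mbc had 170, 159 and 200 CPM with MeHg and 116, 83.1 and 94.9 CPM in controls (log2 0.85 ± 0.16, adjusted p 0.0156). The adaptor blow, which takes part in the turnover of the actin focus, had 59.5, 56.1 and 73.3 CPM with MeHg and 40.4, 28.3 and 35.9 CPM in controls (log2 0.85 ± 0.17, adjusted p 0.0214). The call of mbc was lost without MeHg 3 (adjusted p 0.0849), control 2 (0.0736) or control 3 (0.0529), and that of blow without MeHg 1 (0.0599), MeHg 3 (0.118), control 2 (0.0839) or control 3 (0.0558). Of the other 22 members, the WASp gene itself was at log2 0.04, the founder-cell adaptor rols at -0.16, and the Arp2/3 subunits Arp2, Arp3, Arpc1, Arpc2, Arpc4 and Arpc5 lay between -0.70 and 0.26, none of them called. More fusing cells and more RNA per cell cannot be told apart in such pools.

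**Figure D2:**
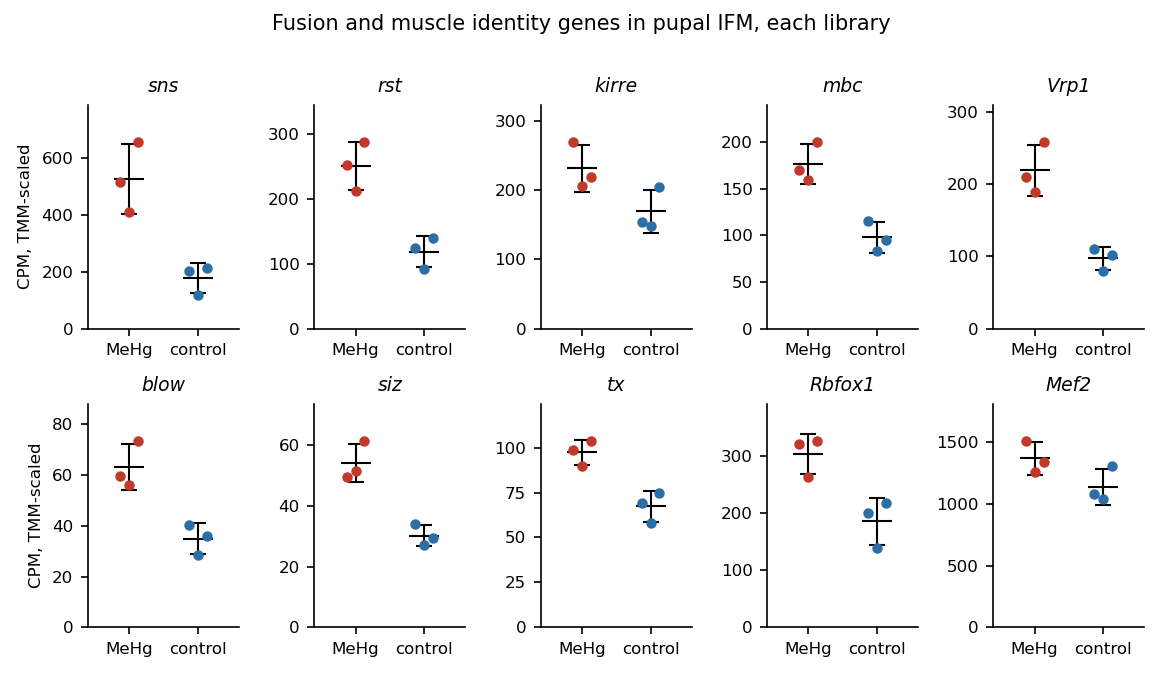
Each panel plots CPM of one gene in the 3 MeHg libraries (red, left) and the 3 control libraries (blue, right), with the mean and SD. The libraries of sns, rst, mbc, Vrp1, blow, siz, tx and Rbfox1, all called, do not overlap between groups, and Mef2, which was not called, had 1257 to 1512 CPM with MeHg and 1038 to 1308 CPM in controls.

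Transcription factors and splicing regulators that set muscle identity were mostly above 0, and few passed. Of 23 tested members, 2 rose (8.7%, against 0.917% of all genes) and 21 had a log2 fold change above 0, with a median of 0.39, or 0.22 with the length trend removed. The bHLH factor tx, known from tendon and wing development, had 98.7, 89.8 and 104 CPM with MeHg and 69.3, 58.1 and 74.8 CPM in controls (log2 0.53 ± 0.10, adjusted p 0.0189). It is also 1 of 10 tendon markers, whose sum was 5071 to 5800 CPM with MeHg and 4212 to 4998 CPM in controls, and the part of tendon RNA in its rise was not tested. Rbfox1, a splicing factor of flight muscle, had 321, 263 and 326 CPM with MeHg and 200, 140 and 218 CPM in controls (log2 0.71 ± 0.16, adjusted p 0.0433, and 0.084 with the length trend removed). The call of tx was lost without MeHg 1, MeHg 3, control 1 or control 2 (adjusted p 0.0651 to 0.125) and with the title tag as batch (0.0677). The call of Rbfox1 was lost without any single library other than control 3 (0.0587 to 0.183). The muscle regulator Mef2 (log2 0.26 ± 0.13, adjusted p 0.279) and the myoblast factor twi (log2 0.71 ± 0.67, adjusted p 0.615) did not pass, and twi was at 0.407 to 1.51 CPM in these libraries.

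Structural muscle genes did not move as a group before removal of the length trend. Of 35 sarcomere genes, 1 fell (2.86%, against 2.09% of all genes), 16 were above 0 and the median was -0.01. Single members ran from -2.42 to 0.53, and the member at -2.42 did not pass. With the length trend removed 2 fell and 10 were above 0, against 6006 of all 11347 genes, and the median was -0.17, against 0.022 over all genes. The gene called before removal was flightin, fln, a myosin-binding protein of the thick filament in flight muscle. It was at 64.0, 46.6 and 36.2 CPM with MeHg and 95.9, 103 and 114 CPM in controls (log2 -1.09 ± 0.23, adjusted p 0.0289). Its call was lost without any single library other than MeHg 1 (adjusted p 0.0577 to 0.121). An antisense gene overlaps 801 of its 1300 exonic bases. Neither Mhc (log2 -0.12 ± 0.19, adjusted p 0.793) nor Act88F (log2 -0.24 ± 0.20, adjusted p 0.556) passed, nor did the muscle actin Act57B (log2 0.15 ± 0.13, adjusted p 0.558).

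Of 12 genes of excitation-contraction coupling, 1 fell (8.33%, against 2.09% of all genes), Amph, the amphiphysin of the T-tubule system, at 755, 582 and 474 CPM with MeHg and 947, 1147 and 968 CPM in controls (log2 -0.76 ± 0.16, adjusted p 0.0289). Its call was lost without any single library other than MeHg 1 (0.0529 to 0.113) and with the title tag as batch (0.067). Stacl and Scp1 belong to no list and were among the 12 largest falls that the rule for named genes took. Stacl, an adaptor of the family that supports voltage-gated calcium channels, had 172, 121 and 88.6 CPM with MeHg and 272, 437 and 358 CPM in controls. It fell by 1.49 ± 0.28 on the log2 scale (adjusted p 0.0201), and lost the call without MeHg 2, MeHg 3 or control 2 (0.0763 to 0.0815). Scp1, a sarcoplasmic calcium-binding protein, had 5.24, 2.84 and 3.25 CPM with MeHg and 9.89, 11.5 and 12.1 CPM in controls (log2 -1.56 ± 0.26, adjusted p 0.0108, and 0.0671 without MeHg 3). The 19 genes of muscle attachment and the 15 of the basement membrane held no called member, with medians of 0.19 and 0.15, and 0.08 and -0.01 with the length trend removed. The attachment gene kon, a transmembrane protein needed for muscles to reach their tendons, was at 246, 197 and 219 CPM with MeHg and 175, 152 and 211 CPM in controls and did not pass (log2 0.30 ± 0.14, adjusted p 0.255).

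Genes of energy metabolism lay mostly below 0, and few passed singly. Each of the 21 genes of the TCA cycle and fatty acid oxidation lay below 0, at a median log2 fold change of -0.25. Of them, 1 fell (4.76%, against 2.09% of all genes). That gene was kdn, the citrate synthase that opens the cycle, with 148, 134.5 and 119 CPM under MeHg and 261, 319 and 198 CPM in controls (log2 -0.96 ± 0.17, adjusted p 0.0137, lost without MeHg 2 at 0.0514 or MeHg 3 at 0.0731). The mitochondrial glycerol-3-phosphate dehydrogenase Gpo1, which feeds glycolytic electrons to the respiratory chain, fell as the 1 called gene of 19 in glycolysis and sugar metabolism (5.26%). It had 48.0, 40.0 and 34.3 CPM with MeHg and 63.3, 79.0 and 63.6 CPM in controls (log2 -0.75 ± 0.14, adjusted p 0.0156, lost without MeHg 2, MeHg 3 or control 2 at 0.0607 to 0.0755). Within mitochondrial import and dynamics, 1 of 21 genes fell (4.76%), PolG1, the catalytic subunit of the mitochondrial DNA polymerase. It was at 13.1, 11.6 and 12.6 CPM with MeHg and 18.5, 18.9 and 19.0 CPM in controls (log2 -0.60 ± 0.11, adjusted p 0.0186). Its call was lost with any single library left out (0.0522 to 0.0849).

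The respiratory chain moved little per gene, but nearly every gene lay on the same side. Of 35 nuclear genes of complex I, 33 were below 0 and 2 fell (5.71%, against 2.09% of all genes), with a median of -0.35. Of 34 genes of complexes II to V, 33 were below 0 and 1 fell (2.94%), with a median of -0.31. Of 72 mitochondrial ribosomal protein genes, 71 were below 0 and 1 fell (1.39%), with a median of -0.29. With the length trend removed the 3 medians were -0.14, -0.13 and -0.08 and no member was called, and these are short genes, with a median exonic length of 871, 873.5 and 783 bases against 1934 over all genes. The named members were ND-30 (log2 -0.59 ± 0.14, adjusted p 0.0425) and ND-B16.6 (log2 -0.48 ± 0.10, adjusted p 0.031) of complex I, UQCR-Q (log2 -0.68 ± 0.15, adjusted p 0.0387) of complex III, and mRpL18 (log2 -0.49 ± 0.12, adjusted p 0.0499). With the length trend removed their adjusted p was 0.148 for ND-30, 0.186 for ND-B16.6, 0.144 for UQCR-Q and 0.208 for mRpL18. The share of counts from the mitochondrial genome, given above, was lower in every MeHg library than in every control library, and its part in these values was not tested. That share includes ribosomal RNA genes. The 14 tested genes of the mitochondrial genome had a median log2 fold change of -0.11, and 0 were called. These calls were lost without MeHg 1, MeHg 2, MeHg 3, control 1 or control 2 (adjusted p 0.0586 to 0.219), and that of mRpL18 also without control 3 (0.0711). The 81 cytosolic ribosomal protein genes, of similar length, held no called gene and had a median of -0.04, or 0.15 after removal of the trend. The 31 proteasome genes likewise held none, with a median of -0.12, or 0.04 after removal.

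**Figure D3:**
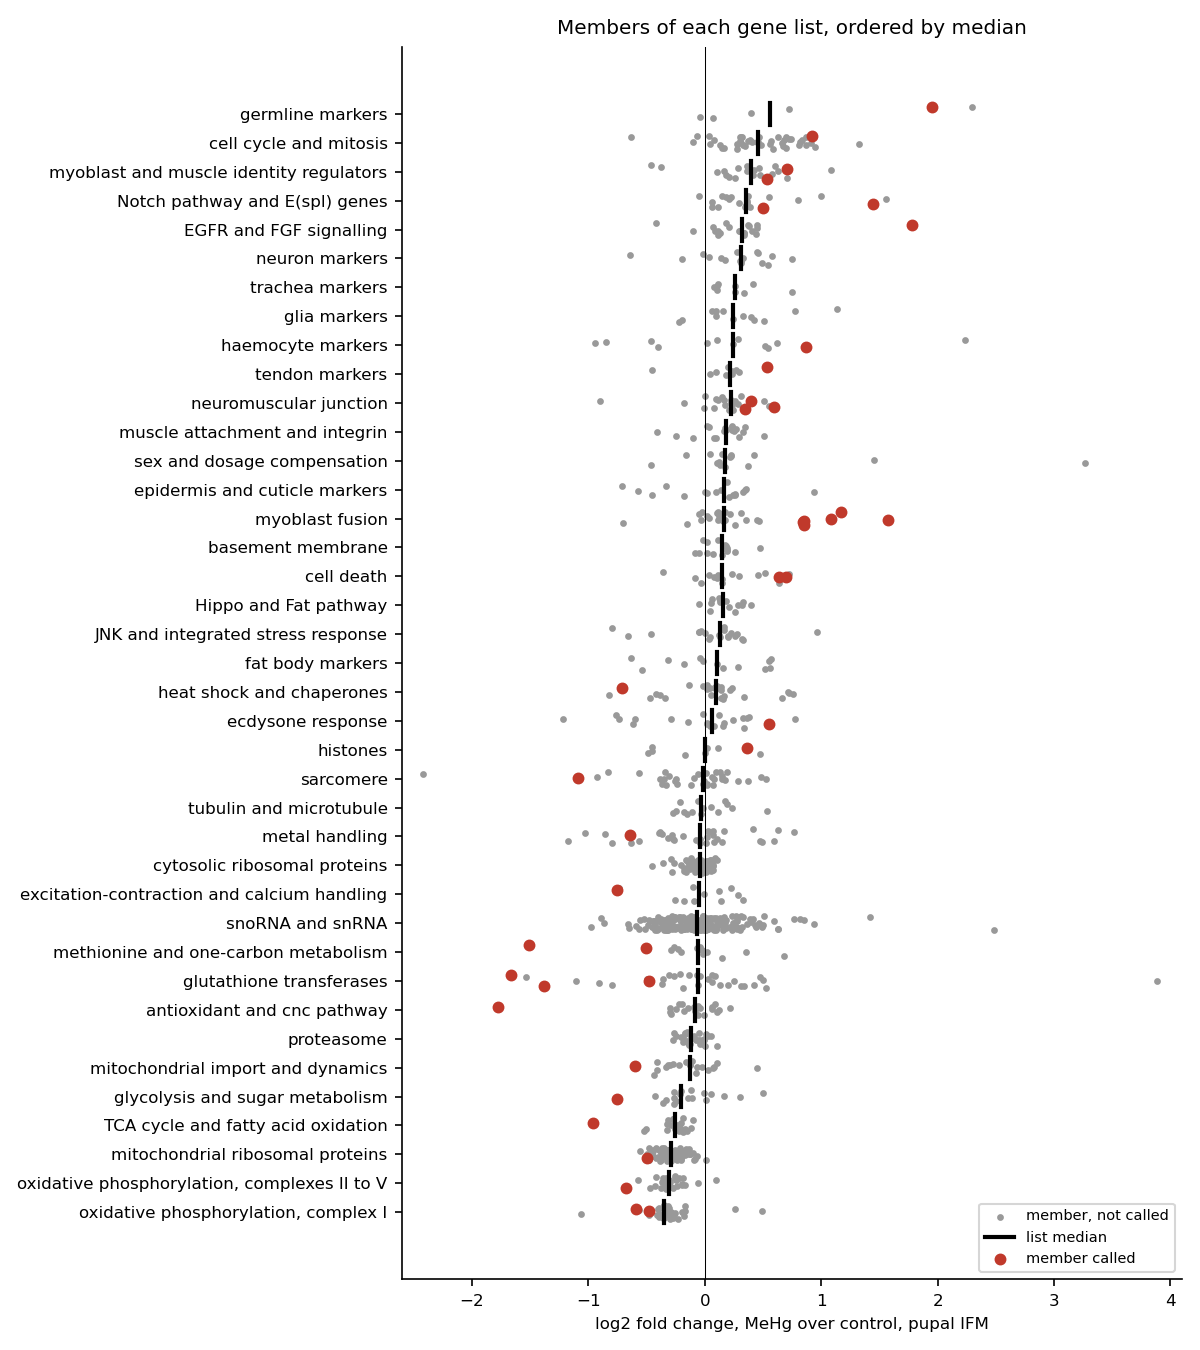
Log2 fold changes of MeHg over control of the tested members of 39 gene lists (grey, not called; red, called; black bar, list median), ordered by the median. The lists of oxidative phosphorylation and mitochondrial ribosomal proteins lie lowest, with medians from -0.35 to -0.29, and the 6 called fusion genes lie apart from the other members of their list.

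Several detoxification enzymes fell, 3 of them in every fit that left out a library. GstE13, a glutathione transferase, was at 5.42, 7.04 and 6.28 CPM with MeHg and 21.0, 18.3 and 20.02 CPM in controls, with the highest MeHg library well under the lowest control (log2 -1.66 ± 0.14, adjusted p 0.000869). GstZ1, the transferase of the tyrosine breakdown pathway, had 2.47, 2.89 and 2.47 CPM with MeHg and 7.08, 7.22 and 6.14 CPM in controls (log2 -1.38 ± 0.14, adjusted p 0.00107). Prx6a, a peroxiredoxin, had 1.27, 1.76 and 1.44 CPM with MeHg and 4.68, 5.87 and 4.76 CPM in controls (log2 -1.77 ± 0.20, adjusted p 0.00206). GstE13, GstZ1 and Prx6a kept the call with each library left out, with the title tag as batch and with the length trend removed. GstO2 fell by 0.48 ± 0.09 on the log2 scale (adjusted p 0.023, and 0.051 with the length trend removed), and lost the call without any single library other than control 1 (0.0521 to 0.0927). Across the 32 tested glutathione transferases 3 fell (9.38%, against 2.09% of all genes) and 14 were above 0, with a median of -0.06, or 0.11 with the length trend removed. Reads can be shared among near-identical transferase genes, which leaves single members uncertain.

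The 5 genes fixed as markers of metal and oxidative stress, cnc, Gclc, GstD1, MtnA and MtnB, did not pass. The cnc gene, the fly Nrf2 factor, was at 134, 119 and 126 CPM with MeHg and 120, 116 and 128 CPM in controls (log2 0.06 ± 0.08, adjusted p 0.741). Gclc, the first enzyme of glutathione synthesis, was at log2 -0.22 ± 0.19 (adjusted p 0.573), and GstD1, a transferase used as an oxidative stress reporter, at log2 0.06 ± 0.14 (adjusted p 0.862). The metallothionein MtnA had 13.9, 11.8 and 19.9 CPM with MeHg and 17.1, 72.6 and 3.98 CPM in controls, so control 2 alone sets its log2 fold change of -1.03 ± 0.76 (adjusted p 0.507), which is 0.56 without that library. MtnB had 9.89, 1.13 and 7.09 CPM with MeHg and 1.70, 7.71 and 1.35 CPM in controls, with overlapping ranges (log2 0.77 ± 0.77, adjusted p 0.646). Of 34 tested genes of metal handling, 1 fell (2.94%, against 2.09% of all genes), the copper importer Ctr1A. Its values were 27.8, 26.5 and 27.4 CPM with MeHg, a narrow range, and 40.6, 48.5 and 38.7 CPM in controls (log2 -0.64 ± 0.10, adjusted p 0.0086). In heat shock and chaperones 1 of 28 fell (3.57%), Hsc70-1 (log2 -0.71 ± 0.13, adjusted p 0.0184), lost without MeHg 2, MeHg 3, control 2 or control 3 (0.0503 to 0.0938). The 21 genes of JNK and integrated stress signalling and the 71 cytochrome P450 genes held no called member.

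Sulfur and one-carbon metabolism gave 2 of 14 genes lower (14.3%, against 2.09% of all genes). Bhmt, which remethylates homocysteine to methionine with betaine, had 13.2, 11.5 and 11.2 CPM with MeHg and 33.1, 45.8 and 23.4 CPM in controls (log2 -1.51 ± 0.20, adjusted p 0.00379). Cth, the cystathionine gamma-lyase that releases cysteine, had 59.0, 56.0 and 56.0 CPM with MeHg and 78.5, 82.9 and 80.7 CPM in controls (log2 -0.50 ± 0.09, adjusted p 0.0156). Bhmt kept the call with each library left out, and Cth lost it without MeHg 2, MeHg 3 or control 2 (0.0652 to 0.0919). Other large falls were Gip, at 3.96, 3.92 and 4.17 CPM with MeHg and 17.3, 19.7 and 12.4 CPM in controls (log2 -2.03 ± 0.26, adjusted p 0.00378), and santa-maria, a scavenger receptor for carotenoid uptake, at 45.5, 41.2 and 47.8 CPM with MeHg and 122, 151.5 and 85.1 CPM in controls (log2 -1.41 ± 0.19, adjusted p 0.00379). Tti1, a cochaperone of the Tel2 complex, had 3.56, 2.84 and 3.40 CPM with MeHg and 7.61, 8.15 and 8.30 CPM in controls (log2 -1.29 ± 0.12, adjusted p 0.000869). All 3 kept the call with every library left out. An antisense overlap covers 528 exonic bases of santa-maria. The falls of Paris (log2 -1.65), T3dh (-1.42) and clt (-1.28) lost the call without single libraries: Paris without MeHg 3 (0.054), T3dh without MeHg 1, MeHg 2 or control 2 (0.0563 to 0.0619), and clt without MeHg 1, MeHg 3, control 1 or control 2 (0.0864 to 0.112).

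**Figure D4:**
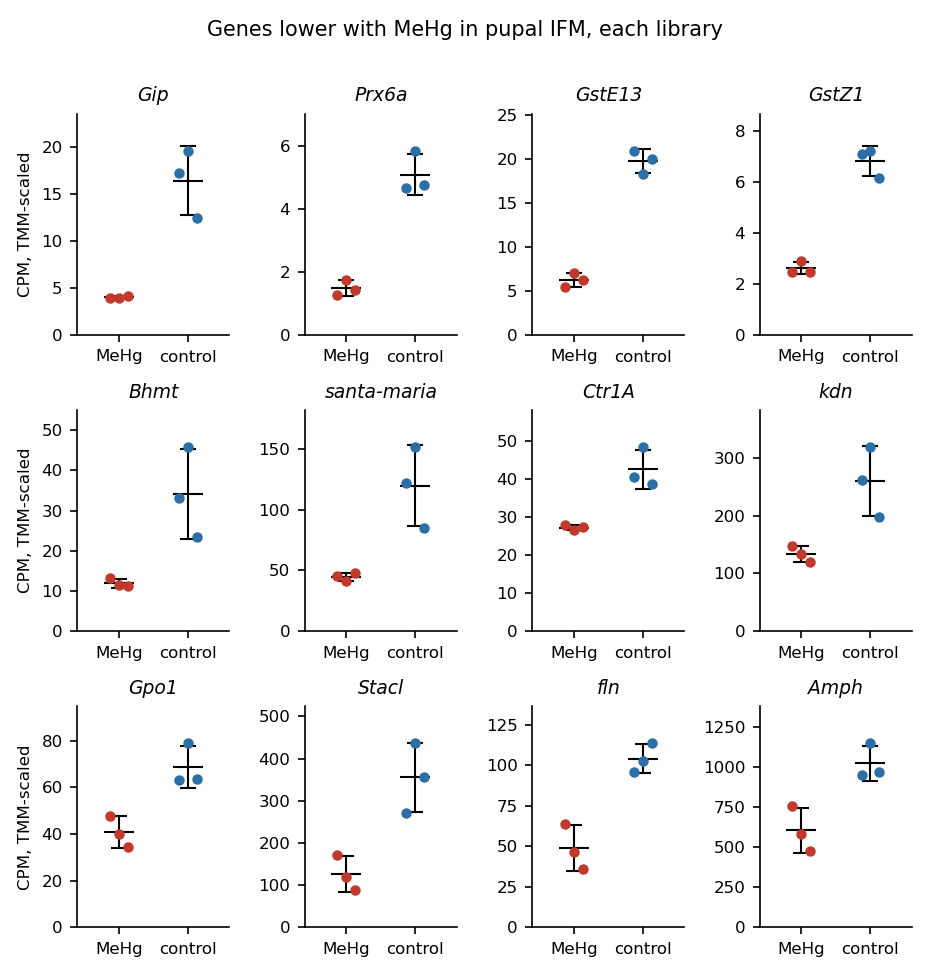
CPM of 12 genes called lower in the 3 MeHg libraries (red, left) and the 3 control libraries (blue, right), with mean and SD. The groups do not overlap in any panel; Ctr1A lies at 26.5 to 27.8 CPM with MeHg and 38.7 to 48.5 CPM in controls.

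Most genes of Notch signalling and the cell cycle lay above 0, and few passed. Of 21 tested Notch pathway and E(spl) genes, 20 were above 0 and 2 rose (9.52%, against 0.917% of all genes), with a median of 0.35 that was 0.38 with the length trend removed. neur, a ubiquitin ligase that activates Notch ligands, was at 89.9, 93.0 and 118 CPM with MeHg and 78.3, 66.8 and 68.3 CPM in controls (log2 0.50 ± 0.11, adjusted p 0.0341, and 0.0911 with the length trend removed). E(spl)m7-HLH, a Notch target repressor, had 2.15, 3.61 and 4.17 CPM with MeHg and 1.22, 1.09 and 1.32 CPM in controls (log2 1.45 ± 0.32, adjusted p 0.0354). Neither the receptor N, at 0.18 ± 0.09 on the log2 scale (adjusted p 0.308), nor the target E(spl)mdelta-HLH, at 0.36 ± 0.44 (adjusted p 0.717), passed. The call of neur was lost without MeHg 2, MeHg 3, control 2 or control 3 (0.061 to 0.149) and that of E(spl)m7-HLH without any single library other than MeHg 1 (0.0718 to 0.203). Of 45 cell cycle genes, 42 were above 0, with a list median of 0.45 and 0.47 with the length trend removed. The 1 that rose (2.22%, against 0.917% of all genes) was feo, a microtubule bundler of the division midzone. Its call (log2 0.92 ± 0.21, adjusted p 0.0416) was lost with any single library left out (0.0742 to 0.138).

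Cell death, ecdysone and growth factor genes gave a few further rises. hid and rpr, the inhibitors of the caspase inhibitor Diap1, were the 2 called of 17 cell death genes (11.8%, against 0.917% of all genes higher), a count that was 1 with the length trend removed and 0 to 1 with a library left out. hid had 125, 141 and 150.5 CPM with MeHg and 95.7, 72.7 and 89.2 CPM in controls (log2 0.69 ± 0.16, adjusted p 0.0413, and 0.0755 with the length trend removed). rpr had 35.0, 39.0 and 46.8 CPM with MeHg and 28.8, 23.02 and 25.7 CPM in controls (log2 0.64 ± 0.15, adjusted p 0.0492). The call of hid was lost without any single library other than control 1 (0.0537 to 0.185), and that of rpr without any single library (0.0732 to 0.22). Eip93F, an ecdysone-induced regulator of metamorphosis, was the 1 riser of 22 ecdysone genes (4.55%, against 0.917% of all genes). It was at 346, 319 and 347 CPM with MeHg and 241, 221 and 228 CPM in controls (log2 0.55 ± 0.10, adjusted p 0.0141). Its call ended after removal of the length trend (0.125), without MeHg 3 (0.0825) and without control 2 (0.0712). With the length trend removed the ecdysone list held 0 rises and 2 falls, and its median was -0.11 in place of 0.06. Those falls, named outside the rule after their values were seen, were the nuclear receptors Hr38 (log2 -1.41 ± 0.31, adjusted p 0.0482) and Eip78C (log2 -0.77 ± 0.17, adjusted p 0.0395), which did not pass without that removal (0.0608 and 0.0676). Of 22 EGFR and FGF genes 1 rose (4.55%), ru, a rhomboid-family protease. It was at low levels of 0.764, 1.53 and 1.14 CPM with MeHg and 0.372, 0.272 and 0.345 CPM in controls (log2 1.78 ± 0.37, adjusted p 0.0274). It lost the call without any single library other than MeHg 1 (0.0654 to 0.103). The 14 Hippo and Fat genes and the 15 tubulin and microtubule genes held no called member.

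Genes of the neuromuscular junction gave 3 rises of 24 (12.5%, against 0.917% of all genes), with a median of 0.22. With the length trend removed 1 rose and the median was 0.08, and with a library left out 0 to 1 rose. The TGF-beta ligand mav had 37.3, 41.6 and 41.7 CPM with MeHg and 26.3, 22.9 and 30.3 CPM in controls (log2 0.60 ± 0.12, adjusted p 0.0257). The adhesion molecule Fas2 (log2 0.34 ± 0.08, adjusted p 0.0475) was no longer called with the length trend removed (0.216). The adhesion gene Nlg1 was at 524, 399 and 432 CPM with MeHg and 300.2, 260.0 and 392.4 CPM in controls and did not pass (log2 0.51 ± 0.18, adjusted p 0.162). The call of Fas2 was lost with any single library left out (0.0663 to 0.176), and that of mav without MeHg 2, MeHg 3, control 1 or control 2 (0.0689 to 0.129).

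Further large rises came from genes in none of the muscle lists. Traf4, an adaptor of TNF receptors, had 44.8, 41.3 and 62.5 CPM with MeHg and 27.98, 16.8 and 23.5 CPM in controls (log2 1.12 ± 0.22, adjusted p 0.0206). The transmembrane ubiquitin ligase gol had 67.1, 57.7 and 79.4 CPM with MeHg and 38.4, 23.1 and 38.9 CPM in controls (log2 1.02 ± 0.18, adjusted p 0.013). The Pax-family factor eyg (log2 1.01), the transporter gene MFS14 (1.06), cutlet (1.199), Mink (1.01) and the neprilysin-like gene Nepl5 (0.88) rose as well. In this group gol (0.0731) and Mink (0.0727) lost the call without MeHg 3. Without other libraries, Traf4 lost it without MeHg 1, MeHg 3, control 2 or control 3 (0.0536 to 0.102), eyg without MeHg 3, control 1 or control 2 (0.0581 to 0.0915), MFS14 without any single library other than control 1 (0.0544 to 0.159), cutlet without any other than MeHg 2 (0.057 to 0.185), and Nepl5 without any other than control 1 (0.0722 to 0.128). MFS14 also lost it with the length trend removed (0.0554). His2Av, a variant histone, was the 1 called of 9 histone genes (11.1%, against 0.917% of all genes higher). Its call (log2 0.37 ± 0.08, adjusted p 0.0408) was lost without any single library other than control 3 (0.0969 to 0.182).

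The strand setting of the counting is not given, and antisense genes overlap exons of neur (1673 bases), Traf4 (864), Mink (681), T3dh (569), Amph (224), ND-B16.6 (221) and Vrp1 (139). With the title tag as a batch term, the calls of blow, cutlet, MFS14, eyg, feo, Hml, Stacl, clt, Rbfox1, neur, E(spl)m7-HLH, hid, rpr, Cth, Hsc70-1, ru, mav, Fas2, ND-B16.6, ND-30, UQCR-Q, mRpL18, GstO2 and His2Av were lost (adjusted p 0.0516 to 0.13), beside those of tx and Amph given above.

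Markers of other cell types were present and were mostly not called. The list sums were 1775 to 1886 CPM with MeHg and 1548 to 1638 CPM in controls for 18 neuron markers, 505.2 to 565 CPM and 496 to 545 CPM for 13 glia markers, and 207 to 254 CPM and 199 to 221 CPM for 9 trachea markers. For 13 fat body markers they were 11214 to 19386 CPM with MeHg and 9652 to 17828 CPM in controls, and none of these 4 lists held a called gene. The epidermis list (18 genes, 1741 to 1951 CPM with MeHg and 1604 to 1876 CPM in controls) held none, and the tendon list (10 genes, 5071 to 5800 CPM with MeHg and 4212 to 4998 CPM in controls) held tx. Among 13 haemocyte markers (274 to 334 CPM with MeHg and 232 to 287 CPM in controls) 1 rose (7.69%, against 0.917% of all genes). This was Hml, the hemolectin of plasmatocytes, at 9.53, 9.20 and 10.2 CPM with MeHg and 4.95, 4.72 and 6.05 CPM in controls (log2 0.87 ± 0.20, adjusted p 0.0383). Its call ended after removal of the length trend (0.147) and with any single library left out (0.0529 to 0.152). Among 6 germline markers (57.5 to 71.9 CPM with MeHg and 54.7 to 63.0 CPM in controls) 1 rose (16.7%). This was vas, the germline RNA helicase, at 3.56, 4.42 and 4.21 CPM with MeHg and 1.01, 1.30 and 0.846 CPM in controls (log2 1.95 ± 0.32, adjusted p 0.00969, and 0.0506 without MeHg 3). Its exons share 563 bases with another gene on the same strand. The gut protease alphaTry was listed at 0 in MeHg 2, MeHg 3 and control 1 and stayed under 1 CPM in the other 3. Neuron markers and tendon markers each summed higher in every MeHg library than in every control library, and the part of the neuron markers in the rises of the junction genes was not tested. Both lists hold long genes, with a median exonic length of 9277.5 and 5051.5 bases against 1934 over all genes. Their median log2 fold changes were 0.31 and 0.22, or 0.14 and 0.06 with the length trend removed. The sexes were mixed, the dosage compensation RNA roX1 overlapped between groups (393 to 791 CPM with MeHg and 351.5 to 521 CPM in controls), and none of 15 genes of sex and dosage compensation was called.

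The pupal response was then set against that of adult IFM, where 862 of the 11347 genes (7.6%) were called. Both stages called 38 genes, which is 11.1% of the pupal and 4.41% of the adult calls, and 28 of them moved the same way, 7 higher and 21 lower. The 2 comparisons share no library but share the estimate of spread. A test of the difference between the stages called 305 genes (2.69%), and 117 of the 341 pupal calls were among them. That test holds the same pupal effect, from the same libraries, that chose the 341. A raised share among them follows in part from this choice and is not a separate result. The fusion receptors sns and rst differed: sns was at log2 1.57 ± 0.23 in pupae and -0.05 ± 0.23 in adults (difference 1.63 ± 0.33, adjusted p 0.0323), and rst at 1.08 and -0.04 (difference 1.12 ± 0.24, adjusted p 0.0362). Other fusion genes did not pass this test: Vrp1 (difference 0.83 ± 0.21, adjusted p 0.0677), siz (0.47 ± 0.15, adjusted p 0.117) and kirre (0.47 ± 0.23, adjusted p 0.294). In adults Vrp1 was at log2 0.34 and siz at 0.37, neither of them called. Adult IFM held sns at 26.1 ± 4.05 CPM with MeHg and 27.0 ± 2.63 CPM in controls, far under the pupal level. Gip fell in pupae and was at log2 0.54 in adults (difference -2.57 ± 0.35, adjusted p 0.0124). GstO2 fell in pupae and rose in adults (log2 0.54, adjusted p 0.0102, difference -1.01 ± 0.13, adjusted p 0.0124), while rpr rose in pupae and fell in adults (log2 -0.70, adjusted p 0.0258, difference 1.34 ± 0.22, adjusted p 0.0199). GstE13 fell at both stages, by log2 1.66 in pupae and 0.70 in adults, with a difference of -0.96 ± 0.19 (adjusted p 0.0279). Ctr1A, ND-B16.6, neur, Fas2 and feo were called at both stages in the same direction. The stage test called 0 genes with the title tag as batch (1585 at an unadjusted p under 0.05), so these differences rest on the fit without a batch term. Without single libraries it called 93 (pupal MeHg 1), 72 (MeHg 2), 39 (MeHg 3), 141 (pupal control 1), 90 (control 2), 121 and 80 (adult MeHg 3 and 4), and 102 and 132 (adult control 1 and 3).

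The same genes were compared with the pupal VNC, in a fit of all 24 libraries. There 28 of 12631 genes (0.222%) were called, and 12 of these were also called in pupal IFM, all lower in both, which is 42.9% of the VNC and 3.52% of the IFM calls. They were GstE13, Tti1, l(2)37Cd, KFase, Ada, PolD2 and 6 genes named only by CG numbers. GstE13 was at log2 -1.13 (adjusted p 0.000364) and Tti1 at -0.60 (adjusted p 0.0235) in the VNC. A test of the difference between the tissues called 31 genes (0.245%). Among the fusion genes, sns differed by 1.69 ± 0.31 (adjusted p 0.0188), Vrp1 by 1.27 ± 0.21 (adjusted p 0.01) and siz by 0.86 ± 0.16 (adjusted p 0.0166), with effects of -0.10, -0.07 and 0.01 in the VNC. Among the falls, santa-maria (-1.32 ± 0.23, adjusted p 0.0114), Gpo1 (-0.86 ± 0.16, adjusted p 0.0177), kdn (-0.90 ± 0.17, adjusted p 0.0284) and Bhmt (-1.12 ± 0.23, adjusted p 0.0475) differed. The tissue test called 18 genes without pupal IFM MeHg 3, 16 without IFM control 2, 56 without IFM control 3, 51 without VNC MeHg 1, 59 with RLE scaling and 49 with the length trend removed. The difference of rst, at 1.26 ± 0.26, did not pass (adjusted p 0.0521).

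**Figure D5:**
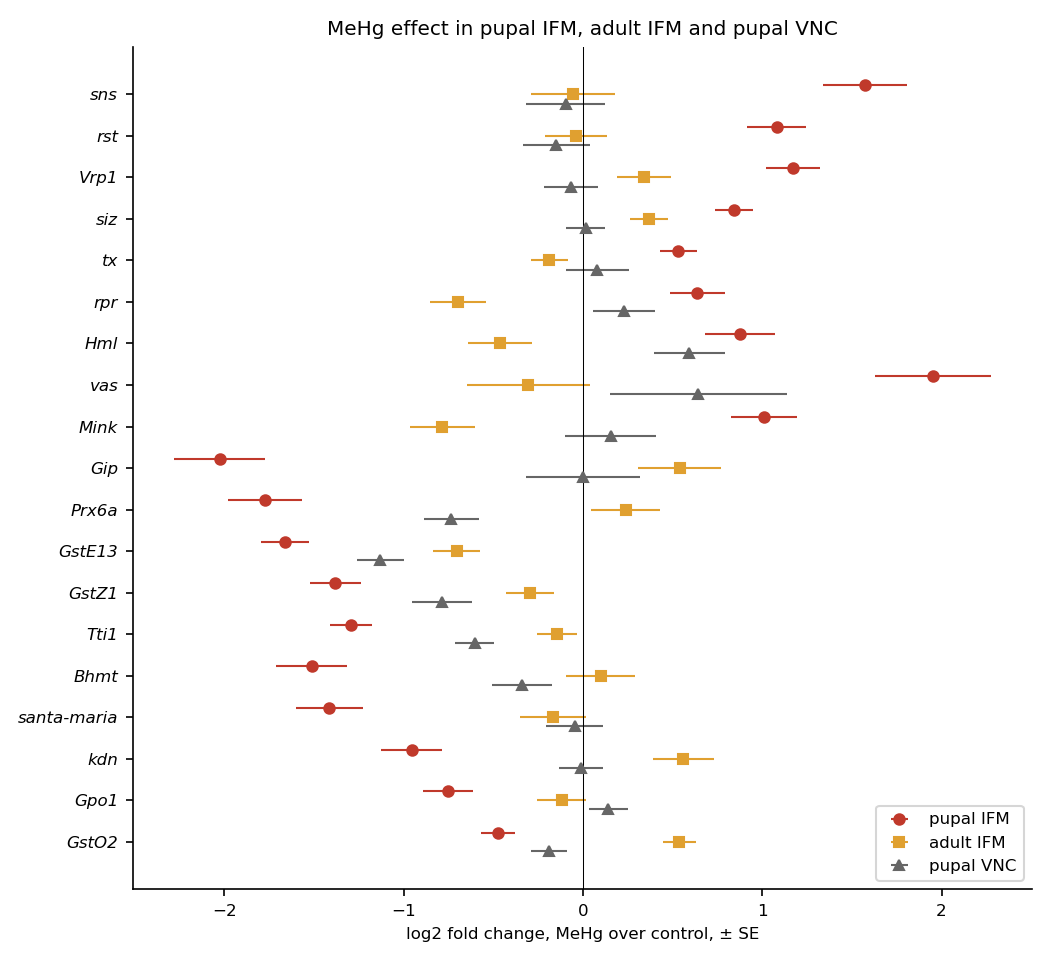
Log2 fold change of MeHg over control with its SE for 19 genes called in pupal IFM (red circles), beside their values in adult IFM (yellow squares) and pupal VNC (grey triangles). The fusion genes lie between -0.15 and 0.01 in the VNC. GstE13, GstZ1, Tti1 and santa-maria lie below 0 in all 3, and of these GstE13 alone was called in each.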

How the data were processed

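Total RNA libraries were made with a stranded kit, per the labels' protocols. The deposited counts are whole numbers for each of 17545 genes. Per the submitters' processing notes, the tools were bcl2fastq 2.19.0 and STAR 2.7.6a on build dm6, with featureCounts of Subread 2.0.1, and the strand setting is not given in the sources used here. A deposited table of normalised counts, a signal, was checked only and not tested. RefSeq symbols matched 17504 genes, and Ensembl exonic lengths of the same release 17480. Genes were tested with edgeR 4.0.16 (quasi-likelihood, TMM scaling, filterByExpr, robust, R 4.3.3) on the 12 IFM libraries with group as the only term (8 residual degrees of freedom), or on all 24 (16) for the VNC. CPM are TMM-scaled within the 12 IFM libraries, and fold changes are printed with their SE. Pooled over genes, counting error is small beside the replicate spread (chi-square per degree of freedom 21.57 to 50.13 between replicates). This pooled value was not worked out for genes of few counts, such as ru, and does not describe them. The length trend was removed per library by lowess (span 0.3) on genes of at least 5 CPM. By rule, named genes were the called genes with the 12 strongest rises and the 12 strongest falls whose ranges did not overlap, leaving out genes known only by a CG, CR or noncoding RNA number and genes averaging under 5 CPM in both groups, up to 4 called members of each of 42 lists, and a fixed set. The rule, the members and the lists were chosen with earlier results of these data known. Differences between stages or tissues were tested as interactions. Alternatives were RLE scaling, no low-count filter, other library sets, a replicate block, the title tag as batch, each replicate left out, limma 3.58.1 (voom) and DESeq2 1.42.0. The test was checked on simulated counts. Of the called genes of the neuromuscular junction list, 1 is not reported here.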

Additional observations from a re-analysis of the deposited data

Results flagged for a closer look

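For 20 of the named genes, out of 305 genes that passed, the MeHg effect in pupal IFM differed from that in adult IFM by the test of the difference itself (edgeR, adjusted p under 0.05), given here as pupal minus adult log2 fold change. Among rises, these were sns (1.63), rst (1.12), MFS14 (1.52), Mink (1.80), Nepl5 (1.49), Hml (1.34), tx (0.72), rpr (1.34), Eip93F (0.70) and vas (2.26). Among falls, these were Gip (-2.57), Prx6a (-2.01), GstE13 (-0.96), Scp1 (-1.57), Bhmt (-1.61), santa-maria (-1.25), GstZ1 (-1.09), Tti1 (-1.15), kdn (-1.52) and GstO2 (-1.01).

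For 7 of the named genes, out of 31 genes that passed, the MeHg effect in pupal IFM differed from that in pupal VNC by the same kind of test, given as IFM minus VNC. These were sns (1.69), Vrp1 (1.27), siz (0.86), Bhmt (-1.12), santa-maria (-1.32), Gpo1 (-0.86) and kdn (-0.90). Groups of 3 libraries are too small for a test of single outlying libraries. With the title tag as a batch term 0 genes passed the stage test.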

How the results depend on the processing

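The 341 calls became 959 with DESeq2, 873 with voom, 587 with all 24 libraries, 523 with the 6 pupal IFM libraries alone (202 with the length trend also removed) and 154 with the title tag as batch. Leaving out one library gave 101 to 271, and with the length trend removed (added after seeing the data) 76 to 189. The stage difference, 305, was 1010 with DESeq2, 0 with the title tag as batch, and 39 to 447 with one library left out. The tissue difference, 31, was 258 with DESeq2, 59 with RLE scaling, 49 with the length trend removed and 16 to 56 with one library left out. The deviations of same-numbered libraries had r of -0.394, 0.294 and -0.064. With 3 libraries per group these values cannot show whether the numbers pair the samples, and replicate 1 of both groups shares a title tag. With a replicate block the calls were 0 (1988 at an unadjusted p under 0.05), with the length trend also removed 1, and the stage difference gave 18. N turned to -0.003, -0.004 (6 libraries) and -0.01 (block) with the length trend removed, cnc to -0.12 in the same 3 fits, and MtnA to 0.07 with voom and 0.56 without control 2 (lowest -1.55, without control 3). The causes were not tested. Of 51 named called genes, DESeq2, RLE and voom called all, length removal 38, the title tag 25, the fit without MeHg 3 13 and the replicate block 0, and none reversed. Genes near 1 CPM, such as ru and twi, rest on few counts, and smaller changes in them were not detectable at this depth.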

Other observations

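These genes were picked after their values were seen, from the 90 called with every library left out, and each has separate ranges. With the length trend also removed, 62 of the 90 were called in all of these fits. PolD2 and msi were not among the 62, and the other genes named here were. The replication clamp PCNA2 was at 0.727, 0.947 and 1.22 CPM with MeHg and 4.68, 4.62 and 4.23 CPM in controls (log2 -2.22 ± 0.21, edgeR adjusted p 0.000869), while the DNA polymerase delta subunit PolD2 was at log2 -1.92 ± 0.30 (adjusted p 0.00785). Kynurenine formamidase, KFase, was at log2 -2.25 ± 0.26 (adjusted p 0.00225) and the adenosine deaminase Ada at log2 -2.40 ± 0.33 (adjusted p 0.00472), both under 3 CPM in every library. The calcium-activated potassium channel slo fell, at 19.4, 25.4 and 25.5 CPM with MeHg and 55.1, 49.3 and 53.2 CPM in controls (log2 -1.17 ± 0.13, adjusted p 0.00206, and a log2 of -1.35 with the length trend removed). CRAT, a carnitine acetyltransferase, fell by 0.87 ± 0.11 on the log2 scale (adjusted p 0.00379), and the selenophosphate synthetase Sps2 by 0.84 ± 0.11 (adjusted p 0.00421). Among rises, the RNA-binding protein msi had 44.0, 46.2 and 45.7 CPM with MeHg and 30.6, 21.8 and 29.0 CPM in controls (log2 0.74 ± 0.12, adjusted p 0.00816).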
